A study of Mus musculus with 6 samples.

Results

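The genes described here encode transcription factors of the AP-1 and early growth response (EGR) families in mouse macrophages: the FOS subunits Fos, Fosb, Fosl1 and Fosl2, the JUN subunits Jun, Junb and Jund, the related factor Atf3, and the zinc finger factors Egr1 and Egr2. They were chosen by name, with earlier results of these data known. Every probe set annotated to 1 of them and to no other gene was taken. This gave 10 genes of 18193 with such a probe set, and 15 probe sets of 45037 that measure transcripts. No probe set of a member lists several genes. Their transcripts were measured on 6 Affymetrix arrays of a single colour, each with the RNA of 1 sample. Wild-type macrophages were given medium (1 array) or lipopolysaccharide (LPS, an outer membrane molecule of bacteria that macrophages sense; 1 array), and these arrays are called the LPS pair. On the other 4 arrays, called the Trib1-line arrays, all macrophages had been given LPS, and they came from wild-type mice (wild type 1 and 2) or Trib1-deficient mice (knockout 1 and 2), numbered as in the labels. Strain, age, sex, the Trib1 allele, the source of the macrophages, the LPS dose and the time of treatment are not given in the labels. Whether like-treated arrays of one genotype stand for different animals or cultures is not stated either, so each p-value measures only the spread between these samples.

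AP-1 is a dimer of leucine zipper proteins. A FOS protein must pair with a JUN protein to bind DNA, whereas JUN proteins can also pair with each other and with ATF factors such as Atf3. Many of these genes, Fos, Jun, Egr1 and Egr2 among them, are immediate early genes: serum response factor, CREB-type factors and AP-1 itself sit on their promoters before a stimulus arrives, so that MAP kinase signalling can switch them on without new protein synthesis. Their transcripts are short-lived, and the level at one time point is therefore a snapshot of a pulse. In macrophages AP-1 acts with NF-kB on cytokine and protease genes, Atf3 restrains several of those cytokine genes, and Egr1 and Egr2 take part in the monocyte to macrophage transition.

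The promoters of Fos, Jun, Egr2 and Atf3 are printed because the first 3 of these genes were lower on every LPS-treated array than in medium and Atf3 was not. They are the 250 bases before the annotated start in RefSeq (build GRCm38.p6), matched by symbol. Windows of 8 of the 10 genes were searched, and none of Fosl1 or Egr1 was among them. The motif results therefore do not cover Egr1, which was also lower on every LPS-treated array than in medium. Each printed window is given 5′ to 3′ on the strand of its gene, and capitals mark every match to a motif searched on both strands. The Fos window is chr12:85473640-85473889 (plus strand), the Jun window chr4:95052223-95052472 (minus strand) and the Atf3 window chr1:191183334-191183583 (minus strand). For Egr2, with 5 annotated windows, the third is shown, chr10:67537619-67537868 (plus strand).
Fos: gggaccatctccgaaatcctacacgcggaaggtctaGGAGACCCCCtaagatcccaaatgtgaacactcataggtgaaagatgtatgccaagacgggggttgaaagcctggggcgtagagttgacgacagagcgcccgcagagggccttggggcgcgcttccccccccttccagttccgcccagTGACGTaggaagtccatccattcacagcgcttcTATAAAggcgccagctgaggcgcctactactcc
Jun: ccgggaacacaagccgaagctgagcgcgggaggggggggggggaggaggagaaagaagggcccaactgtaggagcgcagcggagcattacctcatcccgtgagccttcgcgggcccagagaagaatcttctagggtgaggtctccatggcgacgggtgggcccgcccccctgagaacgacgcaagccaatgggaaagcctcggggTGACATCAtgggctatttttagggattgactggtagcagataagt
Egr2: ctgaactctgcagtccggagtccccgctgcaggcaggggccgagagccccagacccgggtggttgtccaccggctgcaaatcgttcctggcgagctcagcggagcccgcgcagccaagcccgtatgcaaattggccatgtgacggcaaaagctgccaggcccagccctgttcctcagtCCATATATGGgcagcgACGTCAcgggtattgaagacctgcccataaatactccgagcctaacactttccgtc
Atf3: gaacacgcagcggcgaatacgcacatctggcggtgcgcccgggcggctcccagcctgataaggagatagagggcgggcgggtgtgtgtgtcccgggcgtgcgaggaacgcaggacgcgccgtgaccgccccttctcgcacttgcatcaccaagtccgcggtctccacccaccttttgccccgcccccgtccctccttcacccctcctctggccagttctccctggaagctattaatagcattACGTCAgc
Fos held the letters TGACGT, the core of the cAMP response element that CREB and ATF factors bind, 66 to 61 bases before the start. It also held TATAAA, the TATA box, and a match to the NF-kB consensus. Egr2 held a CArG box, the pattern bound by serum response factor, 72 to 63 bases before the start, and TGACGT on the other strand 56 to 51 bases before it. Jun held TGACATCA, the element known to bind JUN and ATF dimers, 45 to 38 bases before the start. Atf3 held TGACGT on the other strand 8 to 3 bases before the start. No window of the 8 genes held TGACGTCA, TGANTCA (the AP-1 site) or GCGTGGGCG (the EGR site), and the C/EBP pattern TTNNGNAA was matched in Jund and in the second Egr2 window. In 32851 RefSeq windows of this length, the CArG box was found in 1.47%, TGACGT in 6.47%, TGACATCA in 2.93%, TATAAA in 12.4%, the NF-kB consensus in 7.25% and TTNNGNAA in 36.8%. TGACGT lies within TGACGTCA, and it and TATAAA were added to the search after the windows were seen. The windows show letters, not binding.

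**Figure D1:**
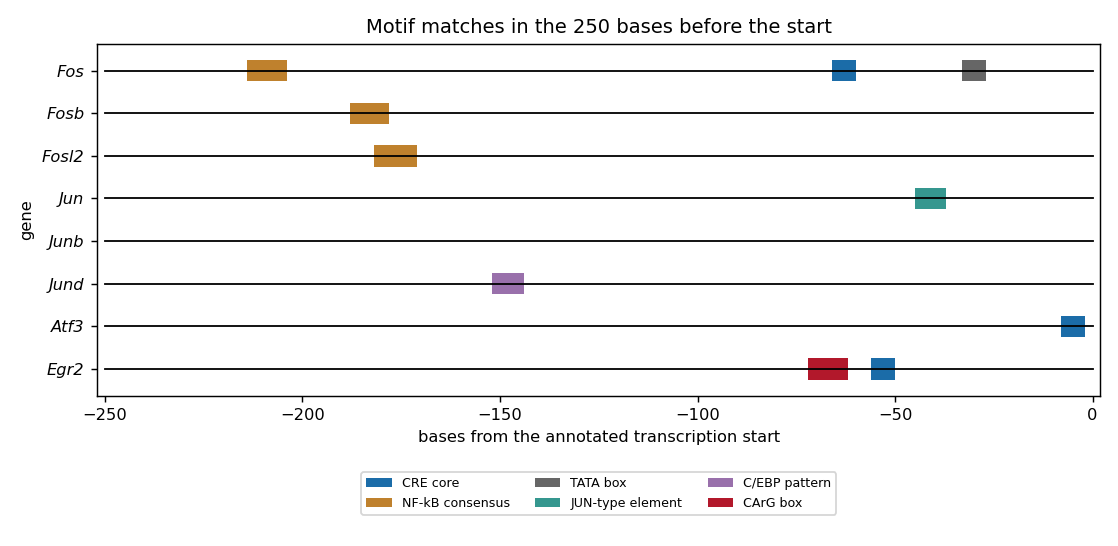
Positions of motif matches in the 250 bases before the annotated start of 8 of the genes (x axis, bases from the start; 1 line per gene, with the third Egr2 window). Coloured blocks are matches on either strand, among them the CArG box and CRE core of Egr2 and the CRE core of Fos and Atf3, and Junb has none.

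The deposited arrays stood at different levels, with trimmed means of 500 for the LPS pair and between 95.5 and 107 on the Trib1-line arrays, so all were brought to one trimmed mean, 234. Intensities below a floor of 29.9 were set to it before log2 was taken, which left 57.9% to 63.0% of the probe sets of an array above it. All 14 macrophage marker genes measured, among them Csf1r, Cd68 and Adgre1, were above the floor on the medium and LPS arrays and 13 on each Trib1-line array, where Cd163 was under it. Xist, transcribed from the inactive X chromosome, was 1616 and 980.5 on the LPS pair and at most 5.56 on the Trib1-line arrays. The Y-linked Eif2s3y was at most 4.74 on the LPS pair and at least 218.8 on the Trib1-line arrays, so sex-linked transcripts as well as the deposited scale set these arrays apart. Trib1 itself was, on the probe set with the higher level, 383.5 in medium, 189.3 on the LPS array, 17.9 and 17.5 on the wild-type and 88.1 and 20.9 on the knockout Trib1-line arrays. Where its probe sets lie relative to the deleted part is not given, so these values do not check the genotypes, and the term knockout-labelled is used. The numbers of arrays limit the precision of every value.

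Of the 10 genes, Fos, Jun, Egr1 and Egr2 were lower on all 5 LPS-treated arrays than in medium, by 2.33-fold to 27.7-fold over their 6 probe sets. Junb, Atf3 and the main probe sets of Fosl1 and Jund were higher on all 5, by 1.08-fold to 3.92-fold, while Fosb and the main probe set of Fosl2 lay on both sides of medium. The second Fosl2 probe set was higher on all 5, by 1.53-fold to 4.38-fold, and the second Fosl1 probe set was under the floor in medium and on wild type 1. Within the LPS pair no member probe set was at least 4-fold higher after LPS, beside 0.986% of the 29115 probe sets that exceeded the floor on 1 or both arrays. At least 4-fold lower were 3 of 15 (Fos, Egr1 and 1 of 2 probe sets of Egr2), beside 0.598%. With a single array for each condition there is no error and no test. The median log2 ratio of the 10 genes was 0.38, with 6 above and 4 below 0, beside a median of -0.09 over all 29115 probe sets. On all 3 wild-type LPS arrays at once, 6 of 15 probe sets (4 genes) were at least 2-fold below medium, beside 1.91% of 33134, and 0 were at least 2-fold above it, beside 1.71%. At 4-fold these were 2 of 15 below (Egr1 and 1 probe set of Egr2), beside 0.196%. The same 2 were at least 4-fold below medium on all 5 LPS-treated arrays, beside 0.141% of 34684. All of these ratios share the single medium array.

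**Figure D2:**
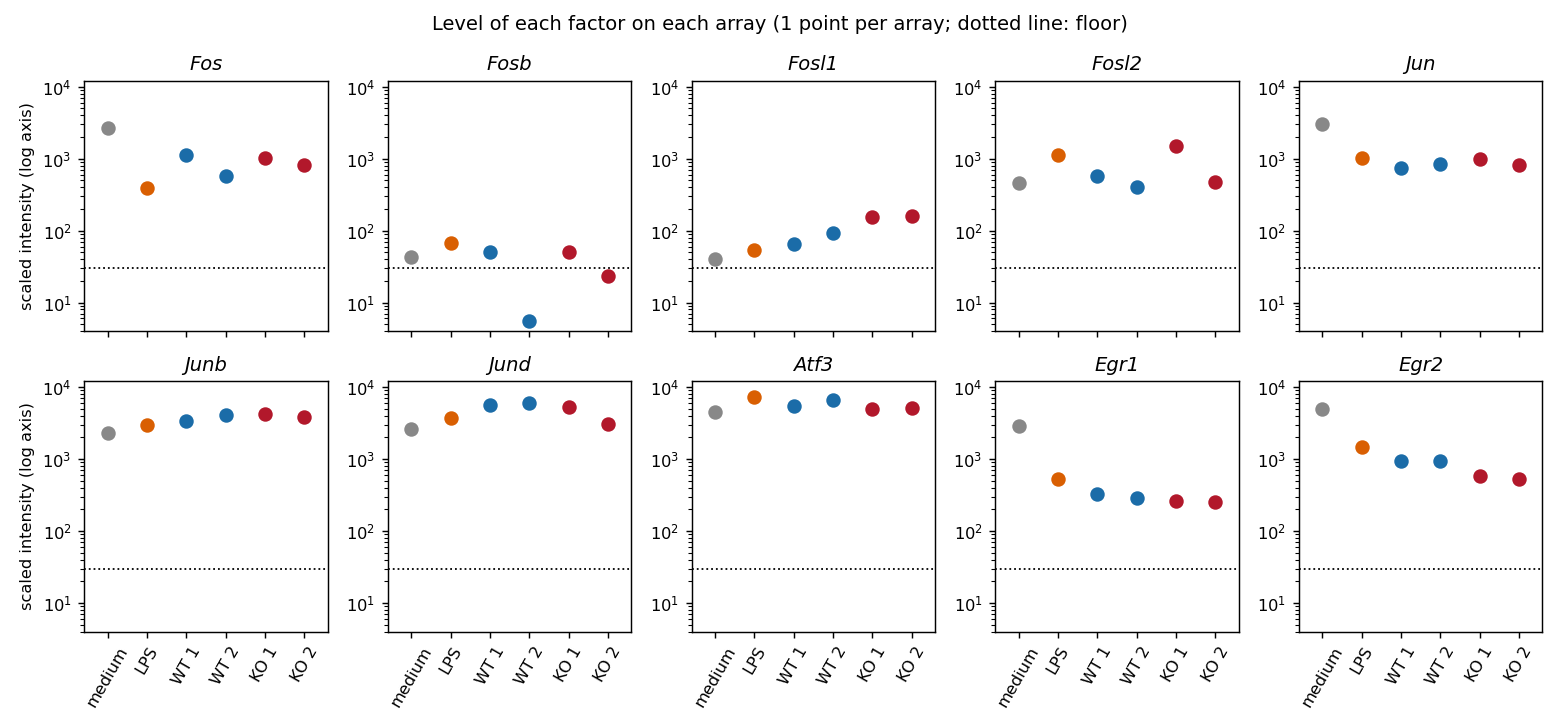
Scaled intensity on a log axis (y) of the most highly expressed probe set of each of the 10 genes on each of the 6 arrays (x), 1 point per array, with the floor as a dotted line. Egr1 runs from 2919 in medium to 251.1 on knockout 2, whereas Atf3 stays between 4529 and 7327 and Fosb lies near or under the floor of 29.9.

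Fos, which pairs with JUN proteins and is the founding subunit of AP-1, measured 2654 in medium and 386.2 on the LPS array of the pair. On the Trib1-line arrays it was 1137 and 581.1 in wild type and 1019 and 817.6 on the knockout-labelled arrays. All 5 LPS-treated arrays were below medium, but they spread over a wide range and the wild-type arrays lay on either side of the knockout-labelled ones. Setting the 3 wild-type LPS arrays against medium with limma, in which the single medium array is assumed to vary like the others, gave a log2 difference of -2.06 (SE 0.56, n = 3 against 1; Benjamini-Hochberg adjusted p = 0.314). Leaving out wild type 1 brought it to -2.49 and leaving out the LPS array of the pair to -1.71. Without the LPS array of the pair, only Trib1-line arrays stand against medium. These also differ from medium in sex-linked transcripts and deposited scale.

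The other FOS subunits were weakly expressed or uneven. Fosb, an activating FOS protein, lay at 43.3 in medium, 66.6 on the LPS array, 50.8 and 5.56 in wild type and 50.6 and 23.1 on the knockout-labelled arrays, near or under the floor throughout. Fosl1, which encodes FRA-1, a FOS protein without the transactivation domain of Fos, was 40.6 in medium, 53.4 on the LPS array, 65.4 and 92.5 in wild type and 154.4 and 159.0 on the knockout-labelled arrays. The order for Fosl1 therefore ran from medium through the wild-type to the knockout-labelled arrays with no overlap, at levels within a few-fold of the floor. Fosl2, which encodes FRA-2, measured 455.1 in medium, 1111 on the LPS array, 570.1 and 397.6 in wild type and 1520 and 468.9 on the knockout-labelled arrays. Knockout 1 was 3.24-fold above knockout 2 for this gene, so arrays of a genotype differed more than the genotypes. Its second probe set gave 111.6, 276.6, 185.6, 170.5, 489.0 and 191.5 in the same order, again with knockout 1 and the LPS array highest. On their most highly expressed probe sets none of these 3 genes passed the test of LPS against medium (log2 0.11 for Fosb, 0.76 for Fosl1 and 0.47 for Fosl2; adjusted p of 0.793 to 0.97 by limma).

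Jun, the JUN subunit that activates most strongly, was 3069 in medium, 1035 on the LPS array, 745.9 and 854.4 in wild type and 997.6 and 808.6 on the knockout-labelled arrays. The 5 LPS-treated arrays lay close together, all about 3-fold to 4-fold below medium, with no separation of the genotypes. The second probe set, at 1133 in medium and 222.1 to 338.5 on the LPS-treated arrays, gave the same order between medium and the rest. The log2 difference of the 3 wild-type LPS arrays from medium was -1.82 (SE 0.30, n = 3 against 1; limma adjusted p = 0.0966), which did not pass. Without wild type 1 the difference was -1.71, and without the LPS array of the pair -1.94.

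Junb and Jund stood the other way round from Jun. Junb, which can counteract Jun at some promoters, measured 2310 in medium, 2962 on the LPS array, 3354 and 4110 in wild type and 4287 and 3865 on the knockout-labelled arrays. Every LPS-treated array was above medium, the difference being 0.58 on the log2 scale (SE 0.30, n = 3 against 1; limma adjusted p = 0.687), which did not pass. Jund, the JUN subunit held to be expressed in resting cells, was 2630 in medium, 3700 on the LPS array, 5708 and 6026 in wild type and 5356 and 3035 on the knockout-labelled arrays. Its log2 difference from medium was 0.94 (SE 0.36; limma adjusted p = 0.554). It was 1.16 without the LPS array of the pair, where only Trib1-line arrays stand against medium. The second Jund probe set was under the floor on 2 arrays and at most 60.7 on the others.

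Atf3, a factor of the ATF family that represses several inflammatory genes, was among the more even members. It measured 4529 in medium, 7327 on the LPS array, 5422 and 6657 in wild type and 4908 and 5057 on the knockout-labelled arrays. All LPS-treated arrays were above medium, by 1.08-fold to 1.62-fold, and both knockout-labelled arrays were below both wild-type arrays. The difference from medium was 0.50 on the log2 scale (SE 0.30, n = 3 against 1; limma adjusted p = 0.748), within the spread the model allows.

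Egr1 and Egr2, zinc finger factors that bind GC-rich sites, had the lowest ratios to medium of the 10 genes on the Trib1-line arrays, whereas in the LPS pair Fos had the lowest. Egr1 was 2919 in medium, 525.8 on the LPS array, 327.9 and 289.0 in wild type and 264.5 and 251.1 on the knockout-labelled arrays. The LPS-treated arrays of both lines were thus well separated from medium, by 5.55-fold in the LPS pair and 8.90-fold to 11.6-fold on the Trib1-line arrays. The log2 difference of the 3 wild-type LPS arrays was -2.99 (SE 0.40, n = 3 against 1; limma adjusted p = 0.0576), just short of the threshold of 0.05. The difference was -2.90 without wild type 1 and -3.25 without the LPS array of the pair.

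Egr2 has 2 probe sets, and 1427682_a_at fell in LPS against medium (log2 -2.78, SE 0.34, n = 3 against 1; limma adjusted p = 0.0493). It measured 3217 in medium, 567.1 on the LPS array, 362.0 and 495.3 in wild type and 116.0 and 221.1 on the knockout-labelled arrays. The more highly expressed probe set, 1427683_at, was 4895 in medium, 1492 on the LPS array, 947.2 and 948.5 in wild type and 573.5 and 529.5 on the knockout-labelled arrays (log2 -2.15, SE 0.35, adjusted p = 0.093), and did not pass. Both ran in the order medium, LPS array, wild type, knockout-labelled, with no overlap between these groups. The call for 1427682_a_at was lost without wild type 2 (limma adjusted p = 0.0527), with quantile normalization (0.0729), with the higher floor (0.0826), without the filter (0.213), without a trend (0.208) and as deposited (0.731). Its log2 difference was -4.35 as deposited and between -2.93 and -2.60 in the other alternatives.

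Over the 15 member probe sets limma called 1 lower and 0 higher in the 3 wild-type LPS arrays against medium, beside 0.0106% (3) and 0.158% (45) of 28430 tested. At an unadjusted p under 0.05 there were 6 lower, beside 4.51%, and 1 higher (Jund), beside 3.65%. The 6 were the probe sets of Fos, Jun, Egr1 and Egr2. Of these LPS arrays, 2 differ from the medium array in sex-linked transcripts and deposited scale. Within the LPS pair, where both are alike, Fos, Jun, Egr1 and Egr2 were lower by 2.96-fold to 6.87-fold, against the same single medium array. The part of sex and deposited scale in the differences was not tested. Markers of other cells and of macrophages also varied over these 4 arrays. Summed intensities of B cell markers were 4424 in medium, 8941 on the LPS array and 2117 and 2323 on wild type 1 and 2, and 2296, 3286, 1605 and 1647 without Ighm. In the same order the sums were 274, 625, 507 and 767 for dendritic cell markers, with Ccr7 (69.7 to 381.4) past the 4-fold rule in the LPS pair, and 400, 771, 429 and 536 for T and NK cell markers, with Gzma (39.6 to 166.5) past it. They were 439, 518, 654 and 618 for neutrophil, 1355, 1706, 944 and 1407 for mast cell and eosinophil and 1176, 1054, 1420 and 1740 for mesothelial and stromal markers. Among macrophage genes Mrc1, the mannose receptor gene, was 5430 in medium, then 3503, 667.3 and 285.5, and the transcription factor gene Cebpa was 4157, then 553.9, 656.3 and 355.9. Both were lower than medium on all 3 wild-type LPS arrays, and Mrc1 was named after its values were seen. Of the 14 macrophage genes, 1 (Cebpa) was at least 2-fold below medium on all 3 and 2 were at least 2-fold above it. These 2 were Cd14 (6314 in medium, then 18708, 13871 and 14874) and Mertk (2517, then 7314, 8578 and 9271). Fewer cells of a type and less RNA per cell cannot be told apart in such samples, and the part of other cells in these values was not tested.

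**Figure D3:**
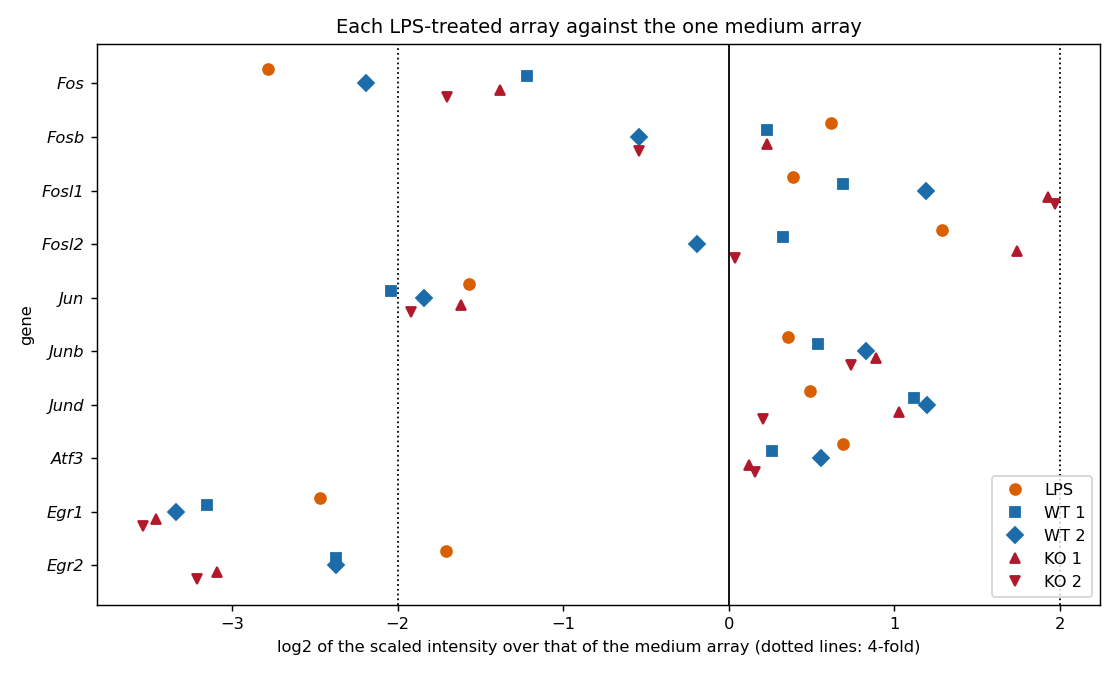
Log2 of scaled intensity over that of the medium array (x) for each of the 10 genes (y), with 1 symbol per LPS-treated array and dotted lines at 4-fold. All 5 symbols of Fos, Jun, Egr1 and Egr2 lie left of 0 and all 5 of Fosl1, Junb, Jund and Atf3 right of it.

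Other immediate early genes, among them the EGR family genes Egr3 and Egr4, were split in the same comparison. In the LPS pair Egr3 and Egr4 had log2 ratios of -0.03 and -0.63, from low levels in medium (77.4 and 70.7). Of 33 measured, 32 were above the floor in the LPS pair, with a median log2 ratio of 0.09. After LPS 3 were at least 4-fold higher and 1 at least 4-fold lower, beside 0.986% and 0.598% of all probe sets above the floor. The 3 were Nr4a3, an orphan nuclear receptor gene (47.2 to 350.0), Gem, a small GTPase gene (37.0 to 196.5), and Nfkbiz, an inducible IkB-type protein gene (990.2 to 6533). The 1 was Rgs2, a brake on G protein signalling, which was 1450 in medium, 169.6 on the LPS array and 128.2 and 255.6 on wild type 1 and 2. On all 3 wild-type LPS arrays, 3 were at least 2-fold below medium (Klf2, Klf10 and Rgs2) and 3 at least 2-fold above it (Ier3, Gadd45b and Nfkbiz), named after their values were seen. Over all probe sets these shares were 1.91% below and 1.71% above. None of the 32 tested passed limma over all probe sets.

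**Figure D4:**
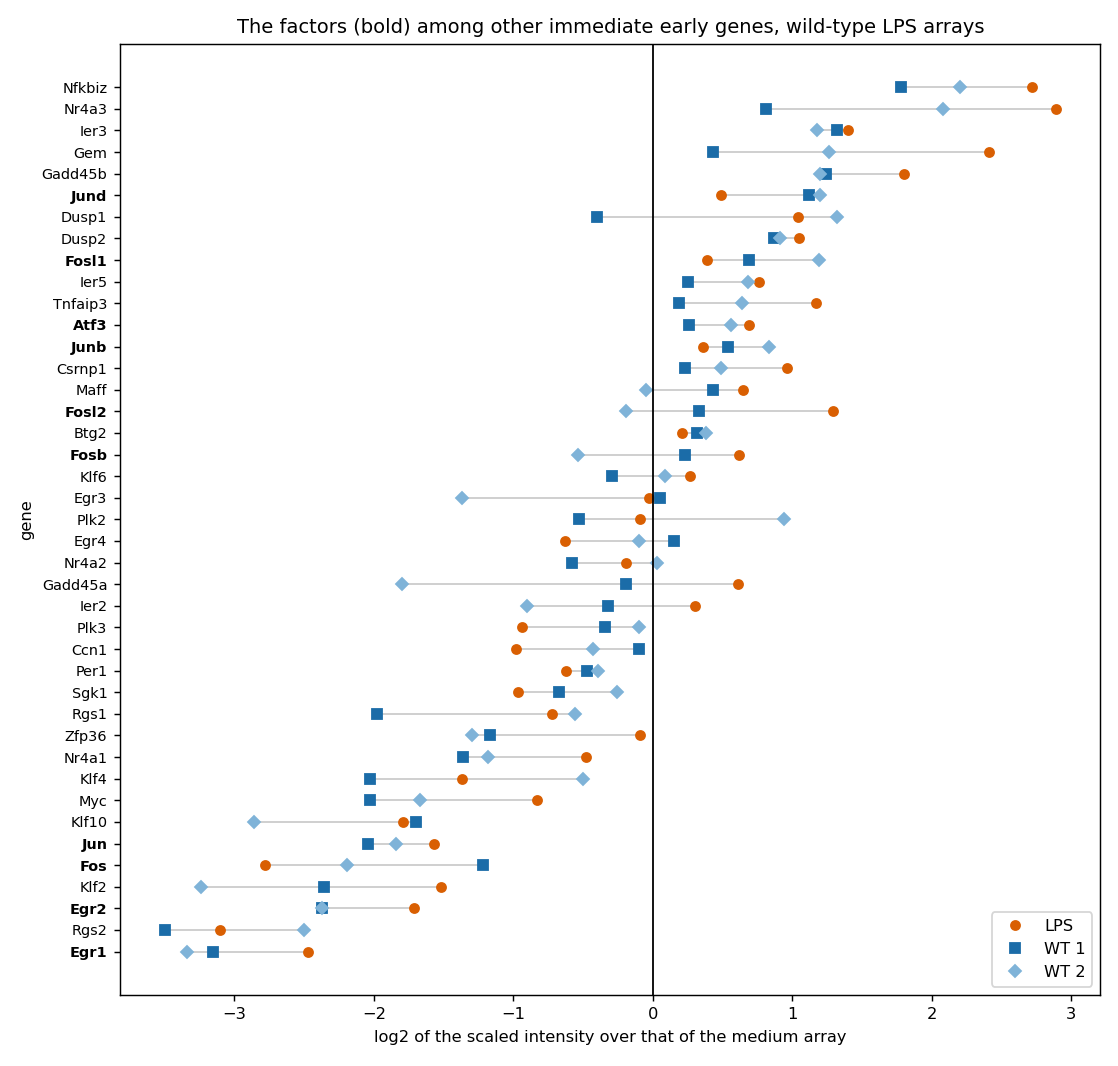
Log2 of scaled intensity over medium (x) on the LPS array of the pair and on wild type 1 and 2, for the 10 factors (bold) and the other immediate early genes above the floor on at least 4 arrays (y, ordered by the median of the 3). Egr1, Egr2, Fos and Jun lie at the lower end with Rgs2, Klf2 and Klf10, and Nfkbiz is at the top.

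Partner, upstream and target genes were counted in the same way. Among 22 other AP-1-related leucine zipper genes, such as Batf, Maf and Bach1, 0 met the 4-fold rule in either direction (median log2 0.03). Among 23 genes above the floor for upstream factors and kinases, such as Srf, Elk1 and Map3k8, there were 0 as well (median 0.18). Of 17 inhibitors and co-repressors, the MAP kinase phosphatase gene Dusp4 was at least 4-fold higher after LPS (43.0 to 457.4), with 110.6 and 157.3 on wild type 1 and 2 (median of the list -0.09). Of 24 genes known as AP-1 or EGR targets, 8 were at least 4-fold higher and 2 lower in the LPS pair (median of the list 0.69). Over all probe sets these shares were 0.986% and 0.598%. By limma 4 of the 24 rose in the 3 wild-type LPS arrays, Il6, Il1b, Il12b and Cxcl2, beside 0.158% of all probe sets. All 4 are cytokine or chemokine genes on which NF-kB acts too. In the LPS pair Il6 was 294-fold, Il12b 171-fold, Il1b 69.3-fold and Cxcl2 12.6-fold higher. Timp1, a metalloprotease inhibitor gene, was 1016 in medium and 16791 on the LPS array but 1504 and 3222 on wild type 1 and 2. The 2 lower ones were Plau, the urokinase gene (369.8 to 40.8), and Vegfa (245.7 to 57.5), named after its values were seen. On wild type 1 and 2 Plau was 57.4 and 103.6 and Vegfa 142.8 and 144.2. The 3 further genes past the rule, also named after their values were seen, were Mmp13, Ptgs2 and Il10. The collagenase gene Mmp13 was 1104 in medium and 8544 on the LPS array but lay under medium on wild type 1 and 2 (541.6 and 753.2). Ptgs2, the inducible cyclooxygenase gene, was 2266 in medium and 15152, 7884 and 12206 on the 3 wild-type LPS arrays, and Il10 was 38.9, then 185.7, 56.6 and 53.6.

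Between genotypes no member probe set passed limma: at an adjusted p under 0.05, 0 of 15 were higher in the knockout and 0 lower, beside 0% of 29078 tested in each direction. At an unadjusted p under 0.05, 1 was higher (Fosl1) and 2 lower (both of Egr2), beside 2.28% and 2.71% of all. Both knockout-labelled arrays lay above both wild-type arrays for 2 of 15 probe sets, beside 15.4%, and below them for 5 of 15, beside 16.3%. The 5 belong to Jund, Atf3, Egr1 and Egr2 and the 2 to Fosl1 and Fosl2. The median difference of the 10 genes was 0.06 on the log2 scale, with 5 above and 5 below 0, beside -0.01 over all probe sets tested. With 2 arrays a genotype no exact permutation p can pass 0.05, so limma, which borrows the spread of other probe sets, was the test.

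Egr2 had the smallest p of the 10 genes, though it did not pass. On 1427683_at its wild-type and knockout-labelled means were 947.9 and 551.1 (log2 -0.78, SE 0.18, n = 2 each; 95% interval -1.24 to -0.33; limma adjusted p = 0.874). On 1427682_a_at they were 423.4 and 160.1 (log2 -1.40, SE 0.39; 95% interval -2.37 to -0.44; adjusted p = 0.909). The intervals are for single probe sets and are not adjusted for the number tested. The LPS array of the pair, also wild type, was higher than all 4 Trib1-line arrays on both probe sets. Egr1 differed by -0.26 (SE 0.24; 95% interval -0.85 to 0.33; adjusted p = 0.999), so a difference of either sign is within its interval. Nab2, which encodes an EGR co-repressor and was singled out after its values were seen, was 521.7 and 540.5 in wild type and 349.0 and 282.4 on the knockout-labelled arrays (log2 -0.76, SE 0.23; adjusted p = 0.944). Nab1, the other EGR co-repressor gene listed, lay the opposite way, at 1032 and 687.8 in wild type and 1339 and 1327 on the knockout-labelled arrays (log2 0.66; limma adjusted p = 0.965).

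Fosl1 had a mean of 77.8 in wild type and of 156.7 on the knockout-labelled arrays and did not pass either (log2 1.01, SE 0.36, n = 2 per genotype; 95% interval 0.13 to 1.90; limma adjusted p = 0.959). Its second probe set, which was under the floor on wild type 1, overlapped between genotypes (18.7 and 67.9 against 61.3 and 64.0; log2 0.48, SE 0.47). For Fosl2 the log2 difference of 0.83 (SE 0.56) rested on knockout 1 and was -0.02 without that array. For Jund it was -0.54 (SE 0.29; 95% interval -1.26 to 0.17), with knockout 2 the lowest of the 4 arrays. The intervals of Fos (-0.70 to 1.03), Jun (-0.34 to 0.68), Junb (-0.32 to 0.58), Fosb (-1.03 to 1.03) and Atf3 (-0.71 to 0.17) all hold 0, which does not show that these genes were alike between genotypes.

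**Figure D5:**
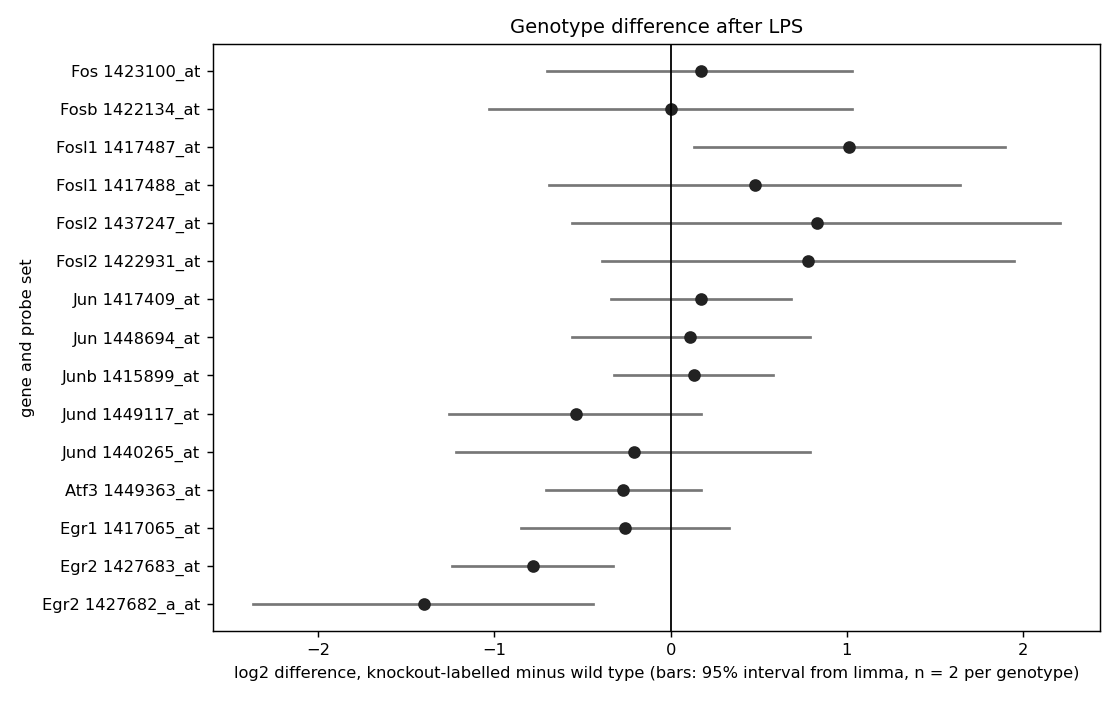
Log2 difference, knockout-labelled minus wild type, within the Trib1 line (x) for the 15 probe sets (y). Points are the limma estimates (n = 2 per genotype) and bars their 95% intervals, which leave out 0 for both Egr2 probe sets and 1 Fosl1 probe set; no adjusted p was under 0.05.

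Levels of markers of other cells are given beside these values. Over the 6 marker lists limma called 0 genes higher and 0 lower between the genotypes. Summed intensities of 8 neutrophil markers were 654 and 618 in wild type and 3428 and 1275 on the knockout-labelled arrays, with 6 and 6 against 8 and 6 genes above the floor. Mmp8, a collagenase gene, carried most of that gap (212.1 and 121.8, then 2587 and 713.6; log2 3.08, limma adjusted p = 0.848). Without it the sums were 442 and 496 against 841 and 562. Ltf, the lactoferrin gene, lay the other way (87.0 and 87.2, then 40.2 and 12.7; log2 -1.33, adjusted p = 0.899), and the granule genes Mpo and Elane had log2 differences of 0.14 and 0.19. Camp, under the floor on both wild-type arrays, had a log2 difference of 2.02 (limma adjusted p = 0.95). Those of Fcnb and Ngp were 0.74 and 0.46, with Ngp high on knockout 1 only (219.4). Of the 7 neutrophil markers tested, Ltf alone had a negative difference, and none passed.

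The 11 mast cell and eosinophil markers summed to 944 and 1407 against 452 and 596 (6 and 11 against 5 and 7 above the floor). Their smallest p values belonged to the protease genes Tpsb2 (134.2 and 148.4, then 39.7 and 34.6; log2 -1.93, limma adjusted p = 0.787) and Cma1 (175.4 and 286.6, then 11.5 and 58.3; log2 -2.43, adjusted p = 0.822). The 8 B cell markers summed to 2117 and 2323 against 1335 and 1854 (8 and 8 against 7 and 8), led by Ighm, the IgM heavy chain gene (512.2 and 676.5, then 186.5 and 266.5; log2 -1.40, adjusted p = 0.848). Without Ighm these sums were 1605 and 1647 against 1148 and 1588. The 13 mesothelial and stromal markers summed to 1420 and 1740 against 2030 and 4619 (9 and 9 against 9 and 11), with Dcn at a log2 difference of 0.99 and Col1a1 at 1.66 (adjusted p of 0.95 and 0.964 by limma), both highest on knockout 2. These 3 sums, like that of the neutrophil markers, did not overlap between the genotypes. Among single probe sets tested, 15.4% had both knockout-labelled arrays above both wild-type arrays and 16.3% had both below.

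The sums of 10 T and NK cell markers overlapped between the genotypes (429 and 536 against 383 and 456; 7 and 5 against 4 and 5 above the floor), and Cd4 was under the floor on every array. Those of 7 dendritic cell markers met at 507 (507 and 767 against 507 and 471; 5 and 7 against 7 and 3). The 2 smallest p values of the T and NK list belonged to Gzma (log2 -1.35) and Cd8a (0.31), of the dendritic list to Siglech (-0.67) and Itgae (-0.53), and of the macrophage genes to Itgam (0.64) and Cd14 (0.58), and the second of the B cell list to Ms4a1 (-0.97), with limma adjusted p of 0.899 to 0.999. The part of these cells in the Egr2 and Fosl1 values was not tested.

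In the gene lists around the factors limma also called 0 genes between genotypes over all probe sets, so the 2 genes with the smallest p of each are given by value only. Among other immediate early genes they were Sgk1, a kinase gene (1083 and 1440 in wild type, 2891 and 3759 knockout-labelled; log2 1.40, SE 0.23, adjusted p = 0.766), and Ier3 (3516 and 3192, then 6413 and 5665; log2 0.85, adjusted p = 0.818). Among inhibitors they were Dusp6, the ERK phosphatase gene (191.3 and 165.7, then 522.4 and 659.0; log2 1.72, SE 0.25, adjusted p = 0.766), and Dusp4 (log2 1.17, adjusted p = 0.899). Among upstream factors they were Ets2 (log2 0.90, adjusted p = 0.787) and Mapkapk3 (log2 0.87, adjusted p = 0.929), and among other leucine zipper genes Mafg (log2 0.79, adjusted p = 0.95) and Nfil3 (log2 1.10, adjusted p = 0.999). Among AP-1 or EGR targets they were Hmox1, the haem oxygenase gene (log2 1.03, adjusted p = 0.766), and Il12b, the p40 cytokine subunit gene (15341 and 14355, then 8829 and 9118; log2 -0.73, adjusted p = 0.872). At an unadjusted limma p under 0.05 the 32 other immediate early genes tested held 3 higher and 3 lower, and the 17 inhibitors 3 and 2. The 24 targets held 4 and 3, the 24 upstream genes 2 and 0 and the 22 other leucine zipper genes 1 and 0. Over all probe sets the shares were 2.28% higher and 2.71% lower. The lists overlap, so these counts are not separate. Dusp2 is among the lower genes of both the immediate early list and the inhibitor list.

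The members followed different courses over the 6 arrays. The Pearson correlation of log2 values was 0.97 between Egr1 and Egr2, 0.96 between Egr1 and Jun and 0.70 between Fos and Jun, whereas Junb ran against Egr1 (-0.93) and Atf3 against Fos (-0.89). The points share the arrays and the single medium array, which lies far from the rest for Egr1, Egr2, Fos and Jun, so these values are a description over 6 arrays. For the closest course, 10969 probe sets of genes other than the members were searched. Each exceeded the floor on 4 or more arrays and ranged over at least 1 on the log2 scale. The closest to Egr1 were Hfe (0.998), Trappc12 (0.997) and Nfic (0.996), to Fos Abhd17a (0.991), Coro1c (0.988) and Hs6st1 (0.983), and to Atf3 Dnaja2 (0.988), Gpr85 (0.983) and Dnajb6 (0.979). Hfe, an iron-regulating gene, measured 1075 in medium and 191.7 to 323.7 on the LPS-treated arrays.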

How the data were processed

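RNA of 6 macrophage samples was measured on Affymetrix arrays, per the labels from TRIzol-extracted total RNA as biotinylated cRNA. The authors deposited 1 linear intensity for each probe set, made with MAS5 per the submitters' processing notes. Its version and scaling target, and any genome build, are not given in the sources used here. Of 45101 probe sets, 64 controls were left out. Gene symbols came from the platform annotation (34945 probe sets with 1 symbol, 932 with several, 9160 with none) and were updated by gene identifier, found in RefSeq for 34741.

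Each array was scaled so that its mean without the lowest and highest 2% was 234. The floor is the pooled 40th percentile. Ratios of at least 4 with the higher value above the floor met the fold rule. A probe set was tested if at least 2 arrays of a fit exceeded the floor, using limma 3.58.1 in R 4.3.3 (lmFit, eBayes with a trend; residual degrees of freedom 2, prior 3.68 for genotypes and 4.98 for LPS), two-sided, with Benjamini-Hochberg adjustment over all of them. A gene is described by its probe set with the highest mean. From other lists, up to 6 genes past the fold rule, largest first, were named, and for the genotypes those past the test or else the 2 with the smallest p. The members and lists were chosen with earlier results of these data known. No label states a pairing of arrays by number; same-numbered arrays' deviations correlated at 0.35. Alternatives were quantile normalization, the deposited scale, other floors, log2 of the value plus 16, no filter, no trend, the number as a block, each array left out, the LPS array as an added wild type, only each gene's main probe set, and fold thresholds of 2 or 8. Figures were drawn with Python 3.11.15 and matplotlib 3.10.9.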

Additional observations from a re-analysis of the deposited data

How the results depend on the processing

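Fos, Jun, Egr1 and Egr2 stayed below medium in all 10 alternatives of the test, but the calls depended on the setting. All 10 share the single medium array, so they cannot show how far these differences rest on it. For 3 LPS arrays against medium, the counts of member probe sets lower (1) and of all probe sets higher (45) and lower (3) became 0, 0 and 0 as deposited, 0, 27 and 1 with quantile normalization, 0, 15 and 0 with the floor at the 60th percentile, 2, 93 and 18 with log2 of the value plus 16, 0, 0 and 0 without a filter, and 0, 5 and 0 without a trend. All probe sets lower were 5 with the floor at the 25th percentile. Leaving out 1 array gave 0 to 6 member probe sets lower, 0 to 1 higher, and 52 to 585 higher and 5 to 561 lower of all. The member count of 6 came without wild type 1 and without the LPS array, 0 without wild type 2.

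The values as deposited put the Trib1-line arrays on a lower scale, which moves the median of all probe sets to -1.53 on the log2 scale for this comparison. On it the differences turned to -1.22 for Fosb, -0.81 for Fosl1 (1417487_at), -1.09 and -0.68 for Fosl2, -0.99 for Junb, -0.63 and -1.76 for Jund and -1.06 for Atf3; except for the second Jund probe set they stay above that median. Fosb was -0.27 with the floor at the 25th percentile, -0.27 with log2 of the value plus 16 and ran from -0.15 (without the LPS array) to 0.43 with 1 array left out. The second Jund probe set was -0.01 with quantile normalization, -0.61 with the lower floor and -0.58 with log2 of the value plus 16.

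In the LPS pair, member probe sets lower (3) were 6 at a fold rule of 2, 0 at 8 and 5 with wild type 1 as the LPS array, and higher (0) were 1 as deposited and 2 at a rule of 2. All probe sets higher (287) were 790 as deposited, 501 with the lower floor, 1461 at a rule of 2, 82 at 8 and 447 with wild type 2. Those lower (174) were 815 as deposited, 465 and 85 with the lower and higher floor, 1832 at 2, 17 at 8, and 370 and 489 with wild type 1 and 2.

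Between genotypes 0 member probe sets passed in any of the 14 alternatives; the lowest adjusted p of a member was 0.0712, for Egr2 1427682_a_at with the number of the labels as a replicate block. That block gave 85 higher and 31 lower of all probe sets, from 0 and 0, and leaving out 1 array gave 5 to 36 higher and 0 to 32 lower. The numbers are not known to pair arrays. With 1 array left out, log2 differences that changed sign ran from -0.32 to 0.65 for Fos, -0.12 to 1.07 for the second Fosl1 probe set, -0.02 to 1.67 for Fosl2, -0.10 to 0.33 for the second Jun probe set, -0.01 to 0.28 for Junb and -0.73 to 0.30 for the second Jund probe set. With the LPS array as an added wild type the second Jun probe set was -0.02. The second Jund probe set was 0.36 with the lower floor and 0.34 with log2 of the value plus 16. Both Egr2 probe sets stayed lower, between -1.87 and -0.71, and Fosl1 1417487_at higher, between 0.76 and 1.26. The cause of these changes was not tested. Signal near background limits Fosb, Fosl1 and the second Jund probe set.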
